A study of Mus musculus with 47 samples.

Results

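Messenger RNA of 10 genes that write, read or erase DNA methylation and the repressive trimethyl mark on lysine 27 of histone H3 was followed across sorted mammary epithelial fractions of hormone-treated mice. The genes were Uhrf1, Hells, Dnmt1, Dnmt3a, Dnmt3b, Tet1, Tet2, Tet3, Ezh1 and Ezh2. They were chosen by symbol from the deposited table, which lists them in capitals (UHRF1, HELLS, DNMT1, DNMT3A, DNMT3B, TET1, TET2, TET3, EZH1 and EZH2), and all 10 were found among its 21980 usable genes. In every fraction 9 of the 10 passed the filter on low values. Tet1 did not, and its values are given without a place in the counts of tested genes.

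All animals were ovariectomized FVB mice, and 4 treatments of 14 days were compared. One was a sham treatment and another E2+Progesterone (EP). The other two added an antagonist to EP, telapristone acetate in EP+TPA and mifepristone in EP+RU486. Removal of the ovaries takes away the main source of estradiol and progesterone, so the sham mice stand for a low-hormone state, and both antagonists were given on top of the hormones. Telapristone acetate and mifepristone are steroids that block the progesterone receptor, and mifepristone also blocks the glucocorticoid receptor. Luminal mature (LM), luminal progenitor (LP) and mammary stem cell (MSC) fractions had been sorted by flow cytometry, and 47 libraries from 20 mice were sequenced. Each group held 4 mice, except LM under EP with 3, and no mouse served in more than 1 treatment group. Doses, the age of the mice and the surface markers of the sort are not given in the sources used here.

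The values deposited by the authors are on the scale of FPKM, which are fragments scaled for transcript length and library size. They carry a further adjustment by gene within 3 sets of libraries, which the labels do not mention and the values themselves show. Set 1 held the 15 LM libraries, set 2 the 16 LP libraries and 6 of the MSC libraries, and set 3 the other 10 MSC libraries. The adjustment aligned the mean of each gene across the sets. LM levels were therefore not compared with those of LP or MSC, MSC was compared with LP only inside set 2, and the size of a difference in 1 set cannot be ranked against that in another. A value listed at 0 can stand for a level under the adjustment and was not read as absence. Levels below are rescaled FPKM, and differences are differences of mean log2(value + 1) with their standard error (SE) from limma. A gene counted as changed when its Benjamini-Hochberg adjusted p, over all genes tested in the comparison, was under 0.05.

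The summed values ran from 217977 to 358375 per library, and 9397 to 11315 genes had a value above 1. The labelled cell types were checked against marker genes. In LM of EP+RU486 mice the luminal mature genes Prlr and Foxa1 were listed at 0 in 4 of 4 libraries, and in LM of EP+TPA mice in 3 of 4. The exception was mouse 332, with 27.3 for Prlr and 3.29 for Foxa1. The 12 luminal mature markers summed to 574 to 1370 in LM of sham mice, 336 to 1600 under EP, 77.2 to 165 under EP+TPA and 53.1 to 102 under EP+RU486. Elf5, which marks luminal progenitors, lay between 25.8 and 28.7 in LM of EP+RU486 mice and between 0 and 6.40 in sham. Under EP it lay between 0 and 18.6, and all EP+TPA libraries of LM had Elf5 of at least 12.8. The 12 luminal progenitor markers summed to 3700 to 11100 in LM of sham mice and 539 to 819 under EP. Under EP+TPA their sum was 730 to 10400 and under EP+RU486 10700 to 13600, both overlapping sham. The luminal mature sum of mouse 332 was 165, also below every sham and EP mouse. The LM libraries of mice given an antagonist thus go against their label by the luminal mature markers. Their summed progenitor markers overlapped those of LM of sham mice. By gene, with mouse 332 left out of the fit, 6 of the 12 were above sham under EP+RU486, beside 13.6% of all genes. Under EP+TPA 5 were, beside 7.35%, and none was below sham in either. The 7 epithelial markers summed to 6880 to 10500 in LM of sham mice and 2880 to 9150 under EP. Under EP+TPA their sum was 2820 to 9110 and under EP+RU486 1190 to 3130, the last below every sham mouse. In LP, the 12 luminal progenitor markers summed to 8320 to 14600 in sham, 975 to 4230 under EP, 8190 to 10700 under EP+TPA and 7690 to 10000 under EP+RU486. Under EP 9 of the 12 fell in LP, so the LP libraries of EP mice also go against their label by these markers. The 7 epithelial markers summed to 7100 to 11800 in LP of sham mice and 4170 to 7070 under EP. Under EP+TPA their LP sum was 4110 to 7870 and under EP+RU486 3770 to 5720. The luminal mature markers summed to 300 to 554 in LP of sham mice, 207 to 1270 under EP, 121 to 144 under EP+TPA and 121 to 192 under EP+RU486, and the median sums of 8 fibroblast markers were 33.8, 121, 38.5 and 36.6 in the same order. In 4 MSC libraries of set 3 the basal keratin Krt14 was under 10. They were EP+TPA mice 312 and 328 and EP+RU486 mice 313 and 329, and the Uhrf1 differences in MSC are given with and without them. Most other MSC results are given only with them. The 10 endothelial markers summed to 0 to 2400 over the MSC libraries, 321 to 857 over LM and 160 to 607 over LP, so sorted MSC libraries differed widely in endothelial transcripts. Within LM the sums were 423 to 516 in sham, 347 to 460 under EP, 321 to 857 under EP+TPA and 545 to 850 under EP+RU486. Without mouse 332, 9 of the 10 endothelial markers passed as higher for EP+TPA against EP and 7 for EP+RU486 against EP, where none passed with it. The part of these markers in the results below was not tested.

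Copying DNA leaves each methylated CpG methylated on the old strand only. Uhrf1 binds such sites and ubiquitinates histone H3, which brings in Dnmt1, the enzyme that restores the mark, and the remodeller Hells opens nucleosomes so that methylation can be kept at repeats. Dnmt3a and Dnmt3b place methylation at new sites, and the Tet enzymes oxidise it on the way to removal. Ezh2 and Ezh1 are the alternative catalytic subunits of Polycomb repressive complex 2 (PRC2), Ezh2 being abundant in dividing cells and Ezh1 in resting ones. In the mammary gland, progesterone drives expansion of the epithelium, in part through signals that hormone-sensing luminal cells pass to their neighbours.

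Promoter sequences are shown for Uhrf1, Hells, Dnmt1 and Ezh2, which in LP rose under EP and fell against EP with both antagonists. That of Ezh1, which fell under EP, is also shown. Dnmt3a and Dnmt3b rose under EP in LP as well, and their sequences are not shown. The sequences come from the RefSeq table of build GRCm38.p6. They span 250 bases before to 50 after an annotated start, read on the strand of the gene. The study's files used another build, so these coordinates belong to the sequences alone. All 10 genes matched the table, Uhrf1 with 2 windows and Dnmt1 and Dnmt3a with 3 each. Capitals mark the E2F word, searched as TTTCGCGC, TTTGGCGC, TTTCCCGC and TTTGCCGC on both strands. E2F factors are regulators of genes used in DNA replication.
Uhrf1 window 2, chr17:56304063-56304362, plus strand: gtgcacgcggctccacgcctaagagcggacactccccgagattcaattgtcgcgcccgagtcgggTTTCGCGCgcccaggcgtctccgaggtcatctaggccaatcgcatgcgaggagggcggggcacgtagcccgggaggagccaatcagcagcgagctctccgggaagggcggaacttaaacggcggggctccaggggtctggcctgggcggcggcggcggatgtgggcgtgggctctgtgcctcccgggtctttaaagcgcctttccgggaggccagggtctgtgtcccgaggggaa
Hells, chr19:38930740-38931039, plus strand: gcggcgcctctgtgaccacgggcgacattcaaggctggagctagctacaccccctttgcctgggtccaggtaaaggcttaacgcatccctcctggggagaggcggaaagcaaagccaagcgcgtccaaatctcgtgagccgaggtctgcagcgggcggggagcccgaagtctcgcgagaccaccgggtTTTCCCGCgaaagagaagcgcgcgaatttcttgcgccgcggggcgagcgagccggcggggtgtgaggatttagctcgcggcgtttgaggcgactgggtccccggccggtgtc
Dnmt1 window 3, chr9:20952574-20952873, minus strand: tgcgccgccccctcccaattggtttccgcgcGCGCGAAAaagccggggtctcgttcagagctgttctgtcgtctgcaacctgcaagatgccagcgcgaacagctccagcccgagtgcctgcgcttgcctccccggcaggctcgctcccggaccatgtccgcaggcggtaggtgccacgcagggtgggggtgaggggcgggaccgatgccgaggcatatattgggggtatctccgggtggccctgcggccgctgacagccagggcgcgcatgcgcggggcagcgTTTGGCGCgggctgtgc
Ezh2, chr6:47594981-47595280, minus strand: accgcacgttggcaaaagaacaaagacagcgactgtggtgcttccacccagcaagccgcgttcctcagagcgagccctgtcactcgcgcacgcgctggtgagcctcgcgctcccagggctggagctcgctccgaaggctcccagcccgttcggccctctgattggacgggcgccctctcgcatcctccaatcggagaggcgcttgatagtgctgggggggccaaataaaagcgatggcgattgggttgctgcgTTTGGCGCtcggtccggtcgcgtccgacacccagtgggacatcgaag
Ezh1, chr11:101226414-101226713, minus strand: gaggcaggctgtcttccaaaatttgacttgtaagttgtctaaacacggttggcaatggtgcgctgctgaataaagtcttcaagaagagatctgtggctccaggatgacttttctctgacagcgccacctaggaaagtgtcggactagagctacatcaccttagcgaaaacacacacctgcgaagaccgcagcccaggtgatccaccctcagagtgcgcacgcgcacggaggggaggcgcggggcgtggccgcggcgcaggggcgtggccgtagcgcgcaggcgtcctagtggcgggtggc

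The E2F word was found in 2.26% of all 32851 promoter windows of this length and in at least 1 window of 2.6% of all 27025 genes. It was in 4 of the 10 genes, namely Uhrf1, Hells, Dnmt1 and Ezh2. Its first base lay 185 bases before the start in Uhrf1 and 62 before it in Hells. Dnmt1 had it 219 bases before the start, on the opposite strand, and again at base 34 after it, and Ezh2 at base 4 after it. The other Uhrf1 window, the other Dnmt1 windows and the windows of Dnmt3a, Dnmt3b, Tet1, Tet2, Tet3 and Ezh1 did not hold these letters. Of 28 S phase genes with a window, 10 held the word. A full steroid receptor element, both arms facing each other, was in none of the 10 genes and in 0.537% of all genes, while its single arm TGTNCT was in 4 of the 10 and in 54.0% of all genes. A CCAAT word was in 4 of the 10 genes against 41.1% of all genes. The GC box GGGCGG was in 8 of the 10 against 38.2%, the words TTTGAA or TTCGAA in 2 against 21.7%, and another E2F word, GGCGGGAA, in 1 (Uhrf1) against 2.52%. These are matches of letters, and binding was not measured.

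In LP, EP raised 6 of the 9 tested genes and lowered 1, against 32.7% of all genes called (16.7% higher and 16% lower). Uhrf1, Hells, Ezh2, Dnmt1, Dnmt3b and Dnmt3a rose and Ezh1 fell, while Tet2 and Tet3 did not pass the test. The median difference over the 9 was 0.60, beside 0.01 over all genes tested. In such bulk libraries a change in the share of cells of a kind and a change in RNA per cell cannot be told apart.

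Uhrf1 showed the clearest change. Its level in LP was 1.0, 1.06, 1.07 and 1.21 in the 4 sham mice and 9.30, 13.2, 17.5 and 19.8 in the 4 EP mice. With EP+TPA it was 1.44, 1.54, 1.72 and 1.96, and with EP+RU486 it was 2.07, 2.70, 2.84 and 3.33. The EP mice stood apart from all others, and the 3 remaining groups were ordered sham, EP+TPA, EP+RU486 without overlap. The EP difference was 2.88 ± 0.18 on the log2 scale (adjusted p = 5.25e-08), and Uhrf1 fell relative to EP with both antagonists, at -2.53 ± 0.18 for EP+TPA (adjusted p = 9.69e-07) and -2.05 ± 0.18 for EP+RU486 (adjusted p = 8.11e-06). These 2 comparisons share the EP mice.

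Hells followed the same groups. LP sham mice had 0.636, 0.671, 0.725 and 0.784, and EP mice had 3.70, 7.66, 9.26 and 9.54. EP+TPA mice had 1.04, 1.5, 1.79 and 1.86, and EP+RU486 mice had 1.68, 1.92, 1.97 and 3.22. The lowest EP mouse, 327, lay above the highest antagonist mouse, and the antagonist groups lay between sham and EP. The EP difference was 2.26 ± 0.22 (adjusted p = 2.49e-06), and the differences from EP were -1.69 ± 0.22 with TPA (adjusted p = 7.64e-05) and -1.37 ± 0.22 with RU486 (adjusted p = 0.000454).

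Dnmt1 moved by less, from a higher level. LP sham mice had 14.4, 14.6, 14.7 and 17.2, EP mice 18.1, 18.5, 25.1 and 25.5, EP+TPA mice 10.6, 10.7, 11.9 and 13.7, and EP+RU486 mice 12.5, 13.1, 14.6 and 15.9. The EP+TPA mice lay below every sham mouse, as in 7.85% of all genes, and the EP+RU486 mice overlapped sham. EP raised Dnmt1 by 0.48 ± 0.13 (adjusted p = 0.00997). Against EP it differed by -0.83 ± 0.13 with TPA (adjusted p = 0.00038) and by -0.59 ± 0.13 with RU486 (adjusted p = 0.00437). The lower level under EP+TPA than in sham, -0.36 ± 0.13, did not pass the test (adjusted p = 0.128).

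Of 11 tested partners of maintenance methylation, EP raised 3 and lowered 1 in LP, beside 16.7% and 16% of all genes. The 12 listed partners summed to 172 to 197 in LP of sham mice and 231 to 262 under EP, and to 192 to 210 and 223 to 296 in LM, without overlap in either fraction. Hdac2, a histone deacetylase that binds Dnmt1, rose by 0.81 ± 0.11, and Lig1, the ligase that seals replicated DNA, rose by 1.33 ± 0.21. Zbtb24, a zinc finger protein mutated in a human syndrome of hypomethylated repeats, fell by 0.54 ± 0.12. With TPA, Lig1 differed from EP by -1.48 ± 0.21 and Hdac2 by -0.51 ± 0.11, and with RU486 by -1.09 ± 0.21 and -0.37 ± 0.11, all past the test. In all, 3 partners fell and none rose with TPA, while 3 fell and 1 rose with RU486. Of all genes in LP, 10.6% were lower and 7.64% higher with TPA against EP, and 11.8% and 9.22% with RU486. In LM 2 of 11 rose under EP, Lig1 and Cdca7, a binding partner of Hells. Cdca7 rose by 1.75 ± 0.37 and was also above sham with TPA (2.15 ± 0.34, adjusted p = 0.000585) and RU486 (1.93 ± 0.34, adjusted p = 0.000988).

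**Figure D1:**
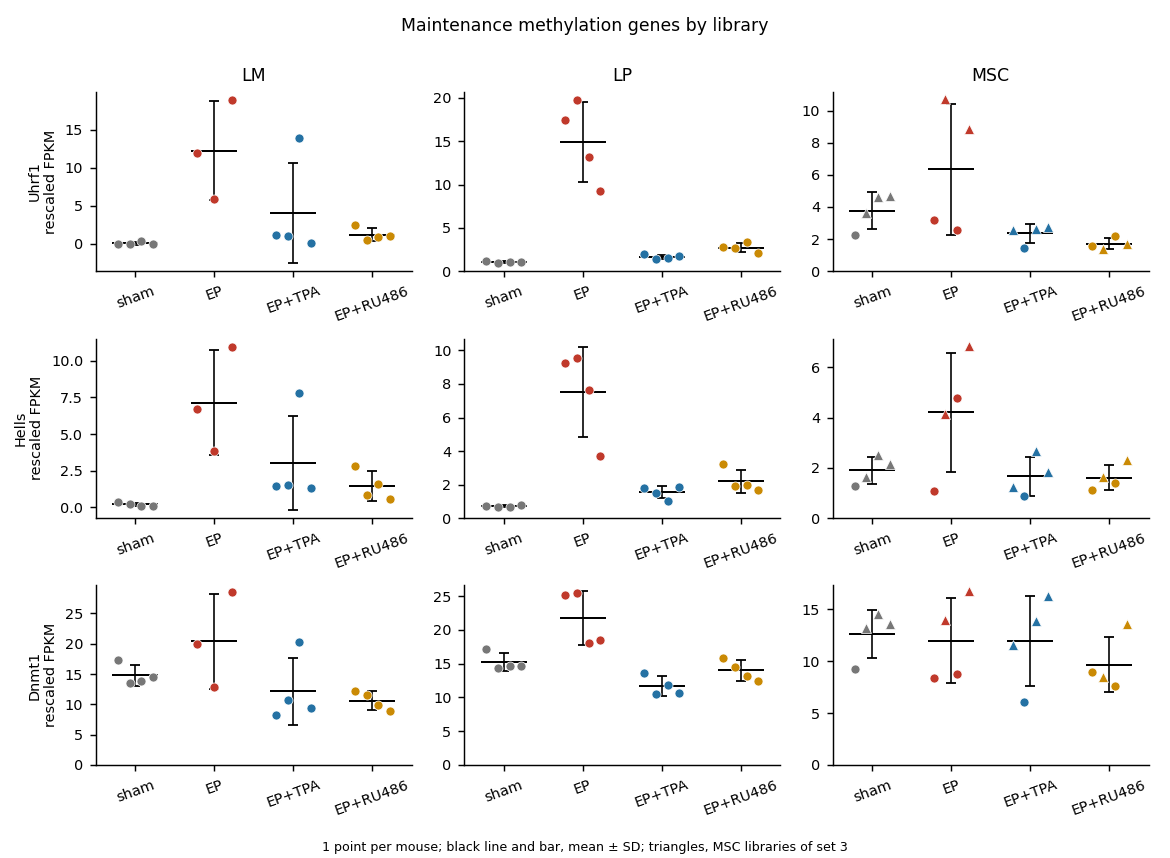
Rescaled FPKM of Uhrf1, Hells and Dnmt1 in every library, by fraction and treatment. Lines and bars give the mean ± SD of each group, and triangles are MSC libraries of set 3. In LP the 4 EP mice lie above all other mice for the 3 genes, and in LM the EP+TPA mouse 332 (13.9 for Uhrf1) lies among the EP mice.

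In LM the same genes led, with fewer mice and a wider spread. EP raised Uhrf1, Hells and Ezh2 and lowered Ezh1, 4 of the 9 genes, against 19.7% of all genes called (10.2% higher and 9.43% lower). Uhrf1 was listed at 0 in 3 sham mice and at 0.402 in mouse 310, and EP mice had 5.90, 11.9 and 18.9, a difference of 3.48 ± 0.66 (adjusted p = 0.0037). Hells was 0.113 to 0.358 in the 4 sham mice and 3.82, 6.68 and 10.9 under EP, a difference of 2.66 ± 0.44 (adjusted p = 0.00124). The groups did not overlap for either gene. Dnmt1 had 13.5, 13.9, 14.4 and 17.2 in sham and 12.8, 19.9 and 28.5 under EP, which overlapped, and its difference of 0.38 ± 0.28 did not pass the test (adjusted p = 0.364).

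With EP+TPA, 3 LM libraries and mouse 332 gave different answers. Uhrf1 was 0.112, 1.1 and 1.16 in 3 mice and 13.9 in mouse 332, and Hells was 1.31, 1.46 and 1.52 against 7.82. Dnmt1 was 8.24, 9.41 and 10.7 against 20.3. Mouse 332 was also the EP+TPA library with 401 for the summed S phase list, where the others had 98.8 to 146 and EP mice 222 to 573, and its 12 luminal progenitor markers summed to 730, against 539 to 819 under EP. With all 4 mice, none of the 9 genes passed the test against EP, and 4.55% of all genes did (1.3% higher, 3.26% lower). Uhrf1 then differed by -2.04 ± 0.66 (adjusted p = 0.0928) and Hells by -1.19 ± 0.44 (adjusted p = 0.126). Without mouse 332, 4 of the 9 fell against EP, beside 9.16% of all genes called lower. These were Uhrf1 (-2.82 ± 0.37, adjusted p = 0.000133), Hells (-1.65 ± 0.32, adjusted p = 0.00233), Dnmt1 (-0.97 ± 0.24, adjusted p = 0.00972) and Ezh2 (-0.64 ± 0.22, adjusted p = 0.0496). Each library of the compared groups was left out in turn, and leaving out mouse 332 in comparisons without its group was added after its values were seen.

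With EP+RU486, LM Uhrf1 was 0.563, 0.863, 0.981 and 2.44, and Hells was 0.589, 0.836, 1.62 and 2.81, all below the lowest EP mouse. These are libraries in which Prlr and Foxa1 were listed at 0. Both genes fell, at -2.52 ± 0.66 (adjusted p = 0.0198) and -1.71 ± 0.44 (adjusted p = 0.0156), and 18% of all genes were called in this comparison (8.93% higher, 9.1% lower). Dnmt1, at 8.91, 9.90, 11.5 and 12.2, also lay below every EP mouse, with -0.82 ± 0.28 and an adjusted p of 0.052. The Uhrf1 call was lost without EP mouse 306 (adjusted p = 0.0589) or 327 (adjusted p = 0.0861), and the Hells call without EP mouse 327 (adjusted p = 0.0751). When mouse 332 of the EP+TPA group was left out of the shared estimate of the spread, 6 of the 9 genes passed: Uhrf1, Hells, Dnmt1, Dnmt3b and Ezh2 lower and Ezh1 higher, against 24% of all genes.

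Against sham, the antagonists left parts of the EP pattern in place. In LP with EP+RU486, 4 of the 9 genes stayed above sham, against 11% of all genes called (4.63% higher, 6.37% lower). They were Uhrf1 (0.83 ± 0.18, adjusted p = 0.00722), Hells (0.88 ± 0.22, adjusted p = 0.017), Ezh2 (0.55 ± 0.14, adjusted p = 0.0205) and Dnmt3a (0.66 ± 0.18, adjusted p = 0.0318). The Hells call was lost without EP+RU486 mouse 304 (adjusted p = 0.0562). That of Ezh2 was lost without sham mouse 301 or 305 or EP+RU486 mouse 308 or 324 (adjusted p = 0.0516 to 0.0739), and that of Dnmt3a without sham mouse 301, 310 or 326 or EP+RU486 mouse 304, 308 or 324 (adjusted p = 0.0569 to 0.102). In LP with EP+TPA none of the 9 differed from sham by this test, against 5.42% of all genes (1.94% higher, 3.48% lower), although Uhrf1, Hells and Ezh2 lay above every sham mouse without overlap, as 6.25% of all genes did. In LM with EP+TPA, Hells was above sham (1.47 ± 0.40, adjusted p = 0.023) and Ezh1 below it (-0.88 ± 0.27, adjusted p = 0.0398), against 16.2% of all genes called (6.72% higher, 9.48% lower). The Hells call was lost without sham mouse 310 (adjusted p = 0.06) or 326 (adjusted p = 0.0653), and that of Ezh1 without sham mouse 305, 310 or 326 or EP+TPA mouse 332 or 336 (adjusted p = 0.0735 to 0.107). In LM with EP+RU486 none of the 9 passed, against 21.8% of all genes (10.3% higher, 11.5% lower). Uhrf1, Hells and the unfiltered Tet1 lay wholly above sham there, as 15.6% of all genes did, and Dnmt1 wholly below it, as 15.1% did. With mouse 332 left out of the fit, Uhrf1 (0.96, adjusted p = 0.0408) and Hells (0.94, adjusted p = 0.0214) passed as higher.

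The antagonists were compared with each other directly. In LP, Uhrf1 was lower with TPA than with RU486 in 4 of 4 mice, and no other of the 10 genes had groups that did not overlap, a pattern shown in this direction by 1.07% of all genes. The difference was -0.48, with a 95% interval of -0.85 to -0.11 and an adjusted p of 1, since 0% of all genes passed the test (204 had an unadjusted p under 0.05). The intervals were -0.78 to 0.15 for Hells, -0.52 to 0.03 for Dnmt1, -0.53 to 0.07 for Ezh2, -0.69 to 0.09 for Dnmt3a and -0.36 to 0.43 for Ezh1. In LM the intervals were wider, at -0.84 to 1.80 for Uhrf1, -0.33 to 1.39 for Hells and -0.44 to 0.66 for Dnmt1, with 0% of genes called and 1581 at an unadjusted p under 0.05. Ezh1 differed between TPA and RU486 in LM by -0.68 (interval -1.26 to -0.10, adjusted p = 0.338), and its groups did not overlap, as in 3.27% of genes in this direction. These intervals do not show that the antagonists act alike.

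Both de novo enzymes rose under EP in LP. Dnmt3a was 1.5, 1.59, 1.97 and 2.76 in sham and 2.76, 3.28, 3.72 and 3.99 under EP, with a difference of 0.60 ± 0.18 (adjusted p = 0.0209). The highest sham mouse met the lowest EP mouse. With EP+TPA it was 1.83 to 3.61 and with EP+RU486 2.43 to 4.50, and neither group differed from EP (-0.24 ± 0.18, adjusted p = 0.424, and 0.06 ± 0.18, adjusted p = 0.852). Dnmt3a was thus a gene raised by EP in LP that passed no test of reversal, although the interval with TPA, -0.63 to 0.15, leaves room for a fall.

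Dnmt3b, the other de novo enzyme, lay near the lower end of the scale. LP sham mice had 0.352, 0.506, 0.822 and 1.54 and EP mice 0.963, 1.70, 2.08 and 2.55, which overlapped, with a difference of 0.66 ± 0.20 (adjusted p = 0.0191). Against EP the differences were -0.52 ± 0.20 with TPA (adjusted p = 0.0854) and -0.53 ± 0.20 with RU486 (adjusted p = 0.0709). Both passed without EP mouse 327 (adjusted p = 0.023 and 0.0193), in values as deposited (0.0293 and 0.0343 as adjusted p) and with library weights (0.00321 and 0.00438). The EP call of Dnmt3a was lost without sham mouse 301 or 310 or EP mouse 306 or 322 (adjusted p = 0.0564 to 0.063), and that of Dnmt3b without sham mouse 305 or 326 or EP mouse 306 or 322 (adjusted p = 0.0562 to 0.067). In LM, Dnmt3b was 0.367 to 1.24 in sham and 0.986, 1.98 and 2.61 under EP (0.77 ± 0.28, adjusted p = 0.0652), and Dnmt3a was 2.12 to 2.79 and 2.27 to 4.22 (0.35 ± 0.27, adjusted p = 0.399). Without EP+TPA mouse 332 in the fit, the LM difference of Dnmt3b passed (adjusted p = 0.0183).

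Tet2 and Tet3, the oxidases above the filter, passed no treatment test in any fraction. Tet2 lay between 0.443 and 1.52 over the 16 LP libraries, between 0.459 and 1.57 in LM and between 0.377 and 1.89 in MSC. Tet3 lay between 0.976 and 3.60 in LP, 0.681 and 3.80 in LM and 1.22 and 4.04 in MSC. The EP intervals in LP were -0.29 to 0.50 for Tet2 and -0.78 to 0.25 for Tet3. Tet1 never reached 1: its highest values were 0.443 in LM, 0.390 in LP and 0.630 in MSC. With no filter, LM Tet1 differed between EP and sham by 0.32 ± 0.09 (adjusted p = 0.0288) and between EP+RU486 and sham by 0.30 ± 0.08 (adjusted p = 0.024), at levels of 0.028 to 0.087 in sham, 0.103 to 0.443 under EP and 0.206 to 0.401 under EP+RU486.

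**Figure D2:**
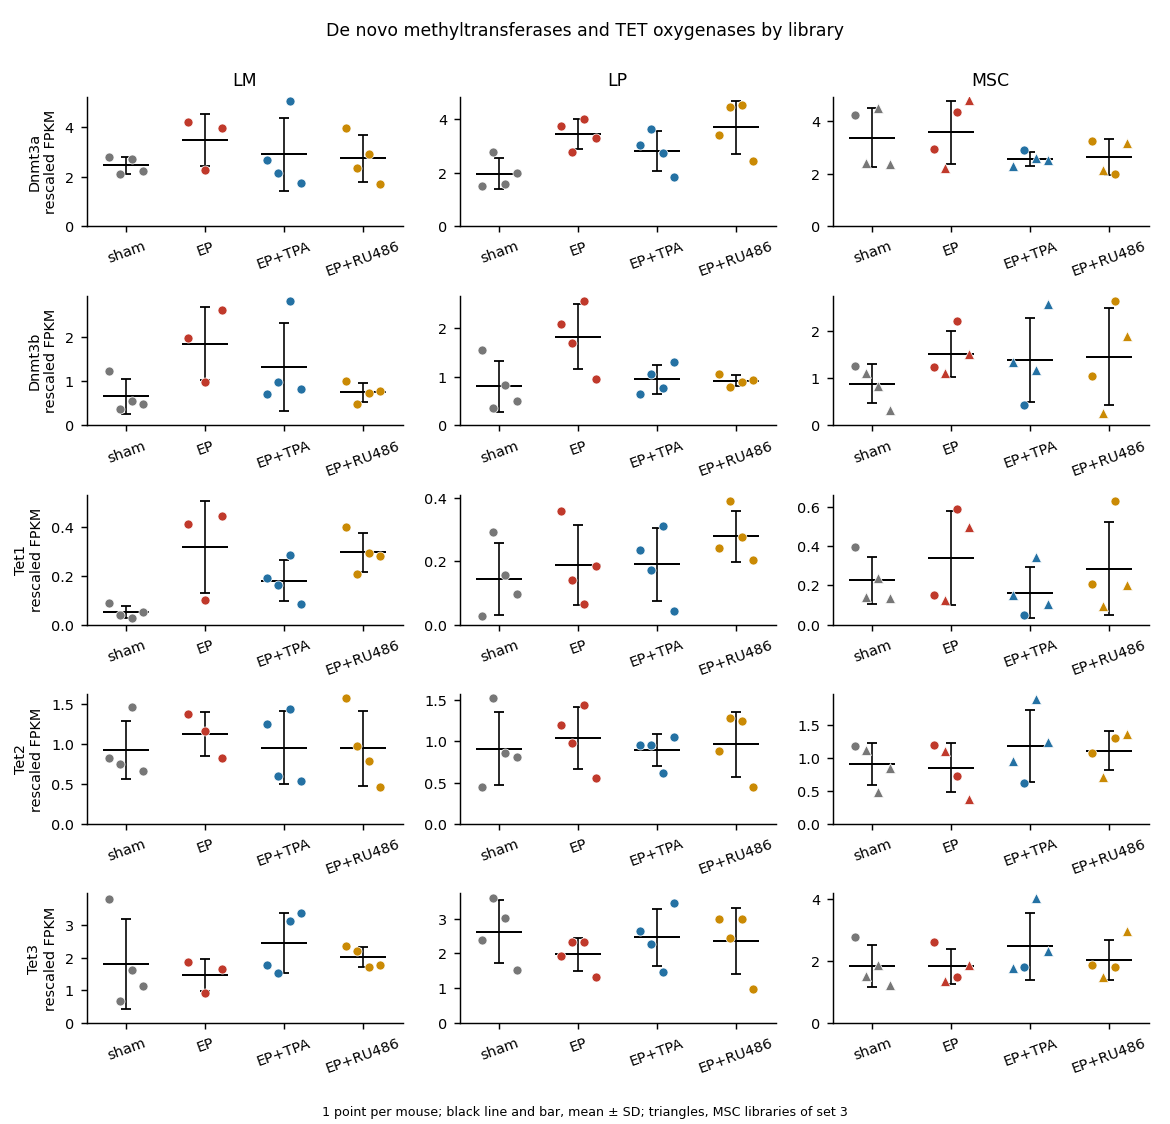
Rescaled FPKM of Dnmt3a, Dnmt3b, Tet1, Tet2 and Tet3 in every library, by fraction and treatment. Lines and bars give the mean ± SD of each group, and triangles are MSC libraries of set 3. Tet1 reaches at most 0.630, and the Tet2 and Tet3 groups overlap in each fraction.

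Readers of methylation and genes of base excision repair, the route by which oxidised or deaminated bases are removed, moved in both directions. In LP, EP raised 5 of 18 and lowered 2, beside 16.7% and 16% of all genes, and in LM it raised 3 of 19 and lowered 3, beside 10.2% and 9.43%. Ung, which removes uracil, rose by 1.40 ± 0.18 in LP and 1.82 ± 0.30 in LM. Apex1, the endonuclease that cuts the emptied site, rose by 0.96 ± 0.11 in LP. Idh2, a mitochondrial enzyme whose product 2-oxoglutarate is the cosubstrate of Tet enzymes, rose by 0.96 ± 0.15 in LP and 1.43 ± 0.28 in LM. In LP, Idh2 differed from EP by -0.18 ± 0.15 with TPA (adjusted p = 0.441) and by -0.11 ± 0.15 with RU486 (adjusted p = 0.647), and it stayed above sham with both (0.78 ± 0.15 and 0.85 ± 0.15). Ung fell against EP with both (-1.16 ± 0.18 and -0.83 ± 0.18). Gadd45a, a stress-induced gene, fell by 2.15 ± 0.32 in LM. In all, 1 gene of this list rose and 3 fell with TPA in LP, beside 7.64% and 10.6% of all genes. With RU486 in LP 2 rose and 3 fell, beside 9.22% and 11.8%. In LM 2 rose and none fell with RU486, beside 8.93% and 9.1%.

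The catalytic subunits of PRC2 moved in opposite directions. In LP, Ezh2 was 2.99, 3.44, 3.93 and 3.94 in sham and 6.24, 8.78, 8.96 and 9.27 under EP. With EP+TPA it was 4.10, 4.36, 5.13 and 5.3, and with EP+RU486 it was 4.85, 4.89, 6.23 and 6.95. Sham and EP did not overlap, and the antagonist groups lay above every sham mouse. EP raised Ezh2 by 1.02 ± 0.14 (adjusted p = 7.18e-05), and it fell with TPA against EP, at -0.69 ± 0.14 (adjusted p = 0.0028). The fall with RU486, -0.47 ± 0.14 (adjusted p = 0.0266), was lost without EP mouse 306, 311 or 322 or EP+RU486 mouse 304 or 329 (adjusted p = 0.0511 to 0.0814).

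Ezh1 fell where Ezh2 rose. Its LP level was 9.15, 13.4, 13.9 and 14.0 in sham and 6.32, 6.40, 6.42 and 8.79 under EP, without overlap, and the difference was -0.76 ± 0.19 (adjusted p = 0.00524). In values as deposited, without rescaling between libraries, it was -0.50 with an adjusted p of 0.0545. In that setting the median of all genes moved to 0.24, and 80.6% of the calls were higher, beside 51.1% after rescaling. Ezh1 was 6.88 to 13.3 with EP+TPA and 7.78 to 10.97 with EP+RU486, overlapping both EP and sham, and neither antagonist passed the test against EP (0.40 ± 0.19, adjusted p = 0.156, and 0.36 ± 0.19, adjusted p = 0.186).

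In LP, 5 of the 10 genes had EP and sham groups that did not overlap, with Uhrf1, Hells, Dnmt1 and Ezh2 higher (13.9% of all genes) and Ezh1 lower (14.7% of all genes). Against EP, 4 lay wholly lower with TPA (8.27% of all genes) and 3 with RU486 (10.5%). By the test, 4 of the 9 were lower with each antagonist, Uhrf1, Hells, Dnmt1 and Ezh2, against 18.2% of all genes called for TPA (7.64% in the upward and 10.6% in the downward direction) and 21% for RU486 (9.22% and 11.8%). The split of calls over all genes moved with the scaling. In values as deposited, 19.9% of calls were higher for TPA against EP in LP, beside 41.9% after rescaling, and 26.9% for RU486 against EP, beside 43.9%. Against sham the shares were 64.6% for TPA in LP, beside 35.9%, and 75.4% for RU486, beside 42.1%, and for RU486 against EP in LM 30.3%, beside 49.5%. No called difference of the 9 genes changed direction between these scalings. In LM, Uhrf1, Hells, Ezh2 and the unfiltered Tet1 lay wholly above sham under EP (15.2% of all genes), and Uhrf1, Hells, Dnmt1 and Ezh2 wholly below EP with RU486 (18%).

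The ratio of Ezh2 to Ezh1 in the same library, taken on the adjusted values, summarised the pair. It was 0.223 to 0.377 in LP of sham mice, 0.71 to 1.44 under EP, 0.329 to 0.769 with TPA and 0.465 to 0.878 with RU486. In LM it was 0.202 to 0.478 in sham, 0.601 to 2.22 under EP and 0.338 to 0.525 with RU486, while with TPA it was 0.540, 0.664 and 0.673 in 3 mice and 2.97 in mouse 332. The EP mice stood above sham in both luminal fractions. In LM, Ezh2 rose from 3.11 to 4.57 in sham to 6.47, 9.59 and 10.8 under EP (1.02 ± 0.25, adjusted p = 0.0114), and Ezh1 fell from 9.52, 14.7, 15.0 and 15.4 to 4.85, 5.93 and 10.8 (-0.88 ± 0.30, adjusted p = 0.0463). The Ezh2 call was lost without EP mouse 306 (adjusted p = 0.0526) or 327 (adjusted p = 0.0702). That of Ezh1 was lost without any of sham mice 305, 310 and 326 or EP mice 306 and 327 (adjusted p = 0.0871 to 0.225), and the smallest of these differences was -0.68. It was also lost in values as deposited (-0.71, adjusted p = 0.0852), where the median of all LM genes was 0.14 and 68.8% of calls were higher, beside 52% after rescaling. LM Ezh2 and Ezh1 did not pass against EP with RU486 (-0.74 ± 0.25, adjusted p = 0.0504, and 0.69 ± 0.30, adjusted p = 0.113).

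**Figure D3:**
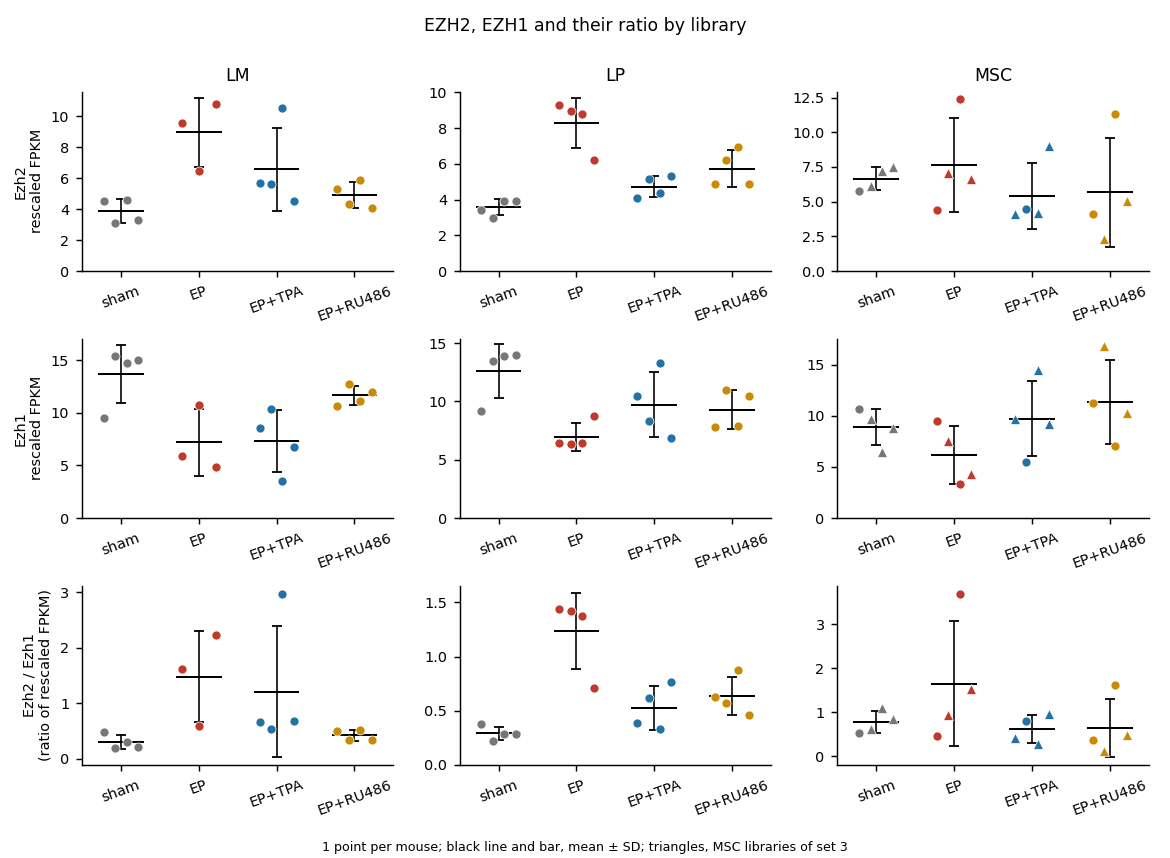
Rescaled FPKM of Ezh2 and Ezh1 and the ratio of the pair in every library, by fraction and treatment. Lines and bars give the mean ± SD of each group, and triangles are MSC libraries of set 3. In LP the EP mice have 6.24 to 9.27 for Ezh2, beside 2.99 to 3.94 in sham, and a ratio of 0.71 to 1.44, beside 0.223 to 0.377 in sham.

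The other Polycomb genes and the lists after them are read against the shares of all genes called for EP, 16.7% higher and 16% lower in LP and 10.2% higher and 9.43% lower in LM. For TPA against EP the shares were 7.64% higher and 10.6% lower in LP and 1.3% and 3.26% in LM. For RU486 against EP they were 9.22% and 11.8% in LP and 8.93% and 9.1% in LM. Of 8 PRC2 partners, EP raised 1 and lowered 1 in LP, and the same counts held in LM. Rbbp7, a histone-binding subunit, rose by 0.73 ± 0.16 in LP and 1.02 ± 0.24 in LM, and Phf1, an accessory subunit that binds methylated histone H3, fell in both (-1.34 ± 0.17 and -1.36 ± 0.28). With TPA in LP 1 partner rose (Phf1, 0.86 ± 0.17) and 3 fell, and with RU486 1 rose (Phf1, 0.74 ± 0.17) and 3 fell. In LM with RU486 1 rose (Phf1, 1.01 ± 0.28) and 3 fell. Of 19 genes of PRC1, the complex that ubiquitinates histone H2A, EP raised 5 and lowered 3 in LP and raised 3 and lowered 1 in LM. The chromodomain subunits Cbx2 and Cbx7 moved apart: Cbx2 rose by 1.03 ± 0.15 and Cbx7 fell by 1.12 ± 0.18 in LP, with 1.04 ± 0.26 and -1.18 ± 0.26 in LM. The Cbx2 to Cbx7 ratio in LP was 0.0388 to 0.0797 in sham and 0.456 to 1.71 under EP. Pcgf5 fell by 0.63 ± 0.16 in LP, and Kdm2b, which brings a form of PRC1 to unmethylated CpG islands, rose by 0.80 ± 0.21 in LM. In LP, none of the PRC1 genes rose and 1 fell with TPA, and 1 rose and 2 fell with RU486.

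Of 12 genes that remove the lysine 27 mark or write opposing ones, EP raised 1 and lowered 1 in each luminal fraction. Kdm6b, a lysine 27 demethylase, fell in both (-0.58 ± 0.16 in LP and -1.19 ± 0.34 in LM), and Paxip1, a partner of opposing methyltransferases, rose by 0.39 ± 0.12 and 0.66 ± 0.20. No gene of this list differed from EP with either antagonist in LP or LM. Among 14 genes of other repressive histone methylation EP raised 6 and lowered 1 in LP and raised 3 in LM. Trim28, a corepressor of retroelements, rose by 0.90 ± 0.13 in LP and 0.73 ± 0.20 in LM. Suv39h1, which methylates lysine 9, rose by 0.97 ± 0.15 in LP, and Cbx3, a heterochromatin protein, by 0.88 ± 0.15. Setdb1 rose by 0.73 ± 0.19 and Ehmt2 by 0.86 ± 0.26 in LM, both lysine 9 methyltransferases. With TPA 4 of these fell in LP and with RU486 2.

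Few of the imprinted and germline genes, whose expression depends on DNA methylation in other settings, were above the filter. Of 4 tested in LP EP raised Peg3 (1.19 ± 0.20) and lowered Plagl1 (-1.17 ± 0.19), and of 5 tested in LM it lowered Plagl1 (-1.13 ± 0.27) and Mest (-0.66 ± 0.18). With TPA in LP Plagl1 rose by 0.70 ± 0.19 and Peg3 fell (-0.69 ± 0.20), and with RU486 Plagl1 rose by 0.73 ± 0.19 (1.21 ± 0.27 in LM). DNA methylation itself was not measured.

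Genes of S phase and cell division moved with the EP groups. Of 35 tested in LP, 33 rose under EP (median 1.49, beside 0.01 over all genes), 33 fell with TPA and 33 with RU486, and 9 stayed above sham with RU486. Mcm2 rose by 2.26 ± 0.14, Ccna2 by 2.45 ± 0.18 and Birc5 by 2.98 ± 0.19. In LM 30 of 34 rose under EP (median 1.68) and 23 fell with RU486. None fell with TPA with all mice, and 26 of 31 fell without mouse 332. Cdk1 rose by 2.73 ± 0.35 in LM, Top2a by 2.88 ± 0.40 and Birc5 by 3.54 ± 0.52. The 36 genes summed to 103 to 110 in LP of sham mice, 285 to 555 under EP, 123 to 136 with TPA and 158 to 170 with RU486, the same order of groups as for Uhrf1. In LM the sums were 69.8 to 79.5, 222 to 573, 98.8 to 401 and 104 to 176. The part of S phase transcripts in the change of the methylation and PRC2 genes was not tested.

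**Figure D4:**
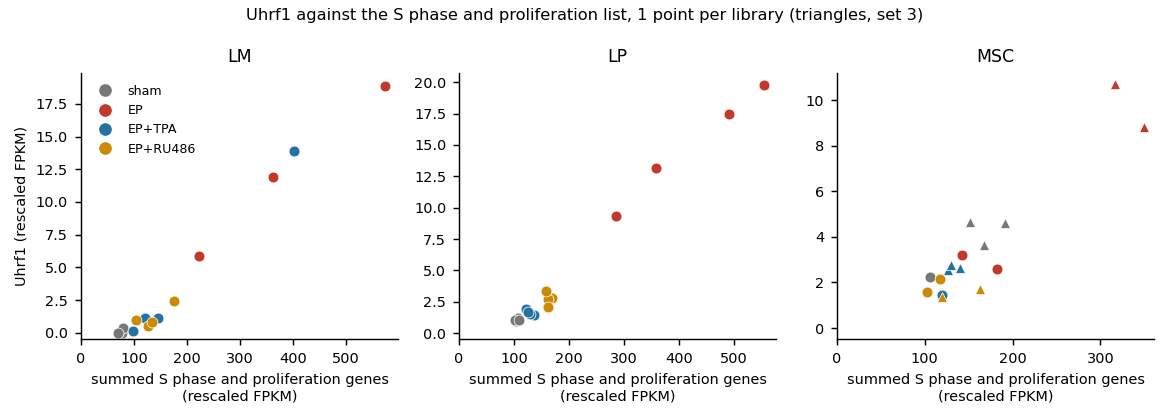
Rescaled FPKM of Uhrf1 against the summed rescaled FPKM of 36 S phase genes on linear axes, 1 panel per fraction and 1 point per library, coloured by treatment, with triangles for set 3. The EP libraries of LM and LP have sums of 222 to 573, and the EP+TPA mouse 332 lies among them in LM at 401.

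The genes whose profile was most like each member's, by Pearson r of log2(value + 1), are given as a description. The libraries fall into treatment groups, which all points of a group share. Over 16 LP libraries, Uhrf1 was nearest to Mki67 (0.991), Chaf1a (0.989) and Diaph3 (0.987), and Hells to Mcm5 (0.982), Spc24 (0.98) and Mcm6 (0.98). Ezh2 was nearest to Gins2 (0.956), Adsl (0.949) and Actl6a (0.942). Dnmt1 was nearest to Senp1 (0.936), Supt16 (0.901) and Lig1 (0.874), and Dnmt3b to Vdac3 (0.963). For Ezh1 the nearest were Ccpg1 (0.911), Nod1 (0.903) and Vamp2 (0.895), and for Dnmt3a it was Zfp282 (0.875). Tet2 was nearest to Epc2 (0.797) and Tet3 to Arhgef5 (0.937). Over 15 LM libraries, Uhrf1 was nearest to Ncapg (0.990), Hells to Smc2 (0.987), Ezh2 to Ncapd2 (0.970), Ezh1 to Tmem173 (0.964) and Dnmt1 to Wdr59 (0.917). Over 16 MSC libraries, after removal of set means, Uhrf1 was nearest to Rrm2 (0.926), Hells to Cenph (0.928) and Dnmt1 to Matn2 (0.916).

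In MSC none of the 9 tested genes passed the test in any of the 6 comparisons, and 0% of the 12188 genes tested did. By limma without adjustment, 655 genes were under 0.05 for EP against sham, 851 for EP+TPA against EP and 592 for EP+RU486 against EP. In set 3 Uhrf1 was 3.63, 4.61 and 4.66 in 3 sham mice, 8.84 and 10.7 in 2 EP mice, 2.56, 2.63 and 2.77 with TPA and 1.36 and 1.71 with RU486. These groups of 2 or 3 mice did not overlap, and the share of all genes with such a pattern was not counted. Both RU486 mice here, 313 and 329, and TPA mice 312 and 328 are the libraries low in Krt14. Over both sets, the Uhrf1 values of EP and sham overlapped, as did those of EP+TPA and EP. In set 2 Uhrf1 was 2.24 in 1 sham mouse, 2.60 and 3.2 under EP, 1.45 with TPA and 1.57 and 2.17 with RU486. The EP mice were the highest there, with 1 sham mouse to compare, and the share of all genes with this order was not counted.

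With both sets in 1 fit, MSC Uhrf1 differed by 0.63 ± 0.26 for EP against sham (adjusted p = 0.92), by -1.13 ± 0.26 for TPA against EP (adjusted p = 0.261) and by -1.26 ± 0.26 for RU486 against EP (adjusted p = 0.41). In the last the groups did not overlap, as in 1.25% of all genes in this direction. Without the 4 libraries low in Krt14 the 3 differences were 0.72 ± 0.21 (adjusted p = 0.964), -1.09 ± 0.25 (adjusted p = 0.344) and -0.67 ± 0.27 (adjusted p = 1), so the last was smaller without EP+RU486 mice 313 and 329. Hells differed by 0.86 ± 0.28 (adjusted p = 0.83), -1.0 ± 0.28 (adjusted p = 0.398) and -0.86 ± 0.28 (adjusted p = 0.904). Its TPA difference passed without EP mouse 306 (-1.28, adjusted p = 0.0491). For EP against sham the intervals were -0.33 to 0.44 for Dnmt1, -0.75 to 0.85 for Ezh2 and -1.17 to 0.23 for Ezh1. The summed S phase list was 106 to 191 in MSC of sham mice, 142 to 349 under EP, 120 to 140 with TPA and 102 to 163 with RU486, and none of its 32 tested genes passed. No gene of the 7 other pathway lists passed in MSC. With library weights in the fit, Uhrf1 (1.15, adjusted p = 0.00343) and Hells (0.88, adjusted p = 0.00557) passed for EP against sham. Both passed for TPA against EP (-1.56, adjusted p = 0.00233, and -1.0, adjusted p = 0.011), and Uhrf1 passed for RU486 against EP (-1.74, adjusted p = 0.00448). The weights also gave 1086, 152 and 96 genes called in these comparisons, in the same order, where none passed without weights.

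Differences of effect between LP and MSC were tested directly, with the limit that 10 of the MSC libraries lie in set 3. The scale of set 3 may differ from that of LP, and the set term in the fit does not correct this. A larger value in LP below is therefore not a ranking of the 2 fractions. The EP effect on Uhrf1 was larger in LP by 2.25 ± 0.32 (adjusted p = 9.58e-05) and that on Hells by 1.40 ± 0.36 (adjusted p = 0.0281), 2 of the 9 genes against 3.62% of all genes called (1.95% higher). The Uhrf1 call held in each of the 13 alternatives run. The Hells call was lost without mouse 301, 305, 306, 310, 311 or 326 (adjusted p = 0.0507 to 0.114). Ezh2 differed by 0.96 ± 0.40 and did not pass (adjusted p = 0.213). The TPA effect on Uhrf1, relative to EP, differed by -1.41 ± 0.32 between LP and MSC (adjusted p = 0.0215), the single gene of the 9 against 1.65% of all genes (1.12% lower). That call was lost without mouse 306, 312, 322, 323, 328 or 336 (adjusted p = 0.0536 to 0.11). None of the 9 passed for RU486, against 1.41% of all genes, with Uhrf1 at -0.79 ± 0.31 (adjusted p = 0.269). Without the 4 MSC libraries low in Krt14 the Uhrf1 difference for RU486 passed, at -1.39 (adjusted p = 0.0418). In values as deposited, 70.7% of the calls for the EP effect were higher in LP, beside 53.7% after rescaling, and 49.2% for the TPA effect, beside 32.4%. Of the S phase list, 11 of 36 genes had a larger EP effect in LP and none a larger one in MSC.

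Levels in MSC and LP were compared in the 6 mice with both fractions in set 2. Dnmt1 was lower in MSC in 6 of 6 mice, 1 of the 9 genes lower, against 39.5% of all genes called (17.6% lower). It was 9.24 in MSC beside 14.4 in LP of sham mouse 305, 8.41 beside 25.1 and 8.71 beside 18.1 in EP mice 306 and 322, 6.10 beside 10.6 in EP+TPA mouse 323, and 8.92 beside 14.6 and 7.63 beside 13.1 in EP+RU486 mice 308 and 324. MSC Dnmt1 thus spanned 6.10 to 9.24 and LP Dnmt1 10.6 to 25.1, without overlap. The share of all genes with such a pattern was not counted. The Dnmt1 difference was -0.85 ± 0.14 (adjusted p = 0.00119). The fit behind this value and those below had terms for fraction and treatment and did not pair the libraries of a mouse. With the block for mouse the Dnmt1 difference was -0.85 (adjusted p from limma 0.00293). Uhrf1 was higher in MSC than LP in the sham mouse (2.24 beside 1.0) and lower in both EP mice (3.2 beside 17.5 and 2.60 beside 13.2). Its mean difference, -0.73 ± 0.34, did not pass (adjusted p = 0.116) and was lower in MSC in 4 of 6 mice, and neither did that of Hells (-0.60 ± 0.30, adjusted p = 0.144). In values as deposited, 7 of the 9 genes passed as lower in MSC, in a setting where the median of all genes was -0.47 and 18.8% of calls were higher, beside 55.3% after rescaling. Basal markers were higher in MSC for 13 of 14 genes, endothelial markers for 9 of 10, and epithelial markers lower for 7 of 7. Of the S phase genes 1 was higher and 11 lower in MSC of 30 tested.

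**Figure D5:**
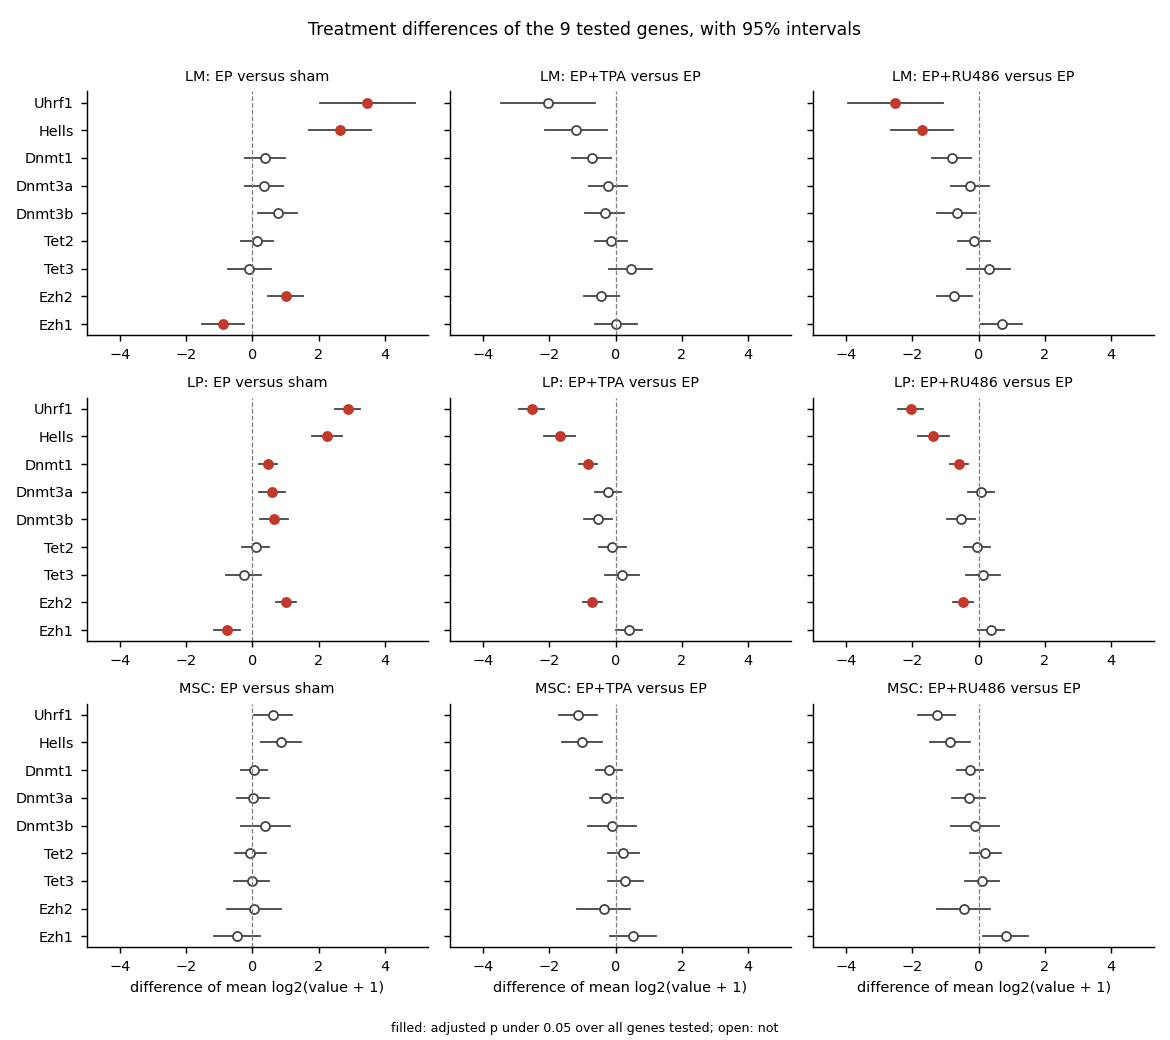
Differences of mean log2(value + 1) with 95% intervals for the 9 tested genes in LM, LP and MSC, for EP against sham, EP+TPA against EP and EP+RU486 against EP. Filled points passed the test; in LP 7 genes are filled for EP against sham (Uhrf1 at 2.88, Ezh1 at -0.76), and none are filled in MSC.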

How the data were processed

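Total RNA from sorted cells was amplified from a polyA start and sequenced in paired ends, per the labels' protocols. The submitters' processing notes name STAR, Cufflinks, DESeq2 and the build mm9, with no versions or order. The labels describe read counts, but the values deposited by the authors are not whole numbers and are on the FPKM scale, so no count test was used and the depth per library is unknown. Of 22007 deposited genes, 27 with date-like symbols were left out. Values shared exactly between libraries (1382 to 6488 within a set, 0 between sets) gave the 3 sets.

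Within each set, libraries were rescaled by median-ratio factors of 0.527 to 1.324, computed on the excess over the lowest value that libraries share for a gene. limma 3.58.1 in R 4.3.3 was fitted to log2(value + 1), with trend and robust variance, over all groups of a fraction, and with a set term for MSC. Genes needed a value of 1 in at least 3 libraries and 3 libraries above the shared lowest value. The p-values quoted are from limma, with Benjamini-Hochberg adjustment across every gene tested in a comparison. The scripts were tested on simulated data. Within a fraction each library is 1 mouse, so the spread is that between mice.

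LP and MSC libraries of a mouse come from the same animal, so numbers pair them. In the 6 mice of set 2, each gene was centred within a fraction on its mean over these mice. Treatment differences therefore remained in the deviations. The LP and MSC deviations of a mouse correlated at -0.0128 to 0.335 over 12779 genes. Members, lists and tests were chosen with earlier results of these data known. All 10 members are named, and of each pathway list up to 3 called genes with the smallest p for EP against sham in each fraction. Promoters and motifs were read from a RefSeq table (GRCm38.p6). Alternatives were values as deposited, a pseudocount of 0.1, no filter, the 2 compared groups only, library weights, a mouse block and leaving out libraries.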

Additional observations from a re-analysis of the deposited data

Results flagged for a closer look

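In 11 of the 110 combinations of a gene and a group of 4 mice, 1 mouse stood apart from the other 3. The gap was beyond Dixon's 95% critical value, which chance passes in about 1 in 20 single tests. The combinations share libraries and are not independent, so no test of their number was made. Mouse 332 of LM under EP+TPA stood apart in 3 genes. It had 13.9 for Uhrf1, where the others had 0.112 to 1.16, 7.82 for Hells, where they had 1.31 to 1.52, and 2.82 for Dnmt3b, where they had 0.711 to 0.993. Mouse 301, a sham mouse, was apart in LM and LP. Its Ezh1 was 9.52 in LM, beside 14.7 to 15.4, and 9.15 in LP, beside 13.4 to 14.0, and its Dnmt1 in LP was 17.2, beside 14.4 to 14.7. Mouse 327, under EP, had the LP values nearest to the other groups, with 8.79 for Ezh1 beside 6.32 to 6.42 and 6.24 for Ezh2 beside 8.78 to 9.27. In LM of sham mice, Uhrf1 was 0.402 in mouse 310 and listed at 0 in the others. In MSC under EP+TPA, Uhrf1 was 1.45 in mouse 323, the group's library of set 2, beside 2.56 to 2.77 in those of set 3, and Ezh2 was 8.99 in mouse 336 beside 4.13 to 4.45.

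The test of the difference between LP and MSC passed for Uhrf1 and Hells with EP (2.255 and 1.396 on the log2 scale). It also passed for Uhrf1 with TPA (-1.405). Of the MSC libraries 10 lie in set 3, whose scale may differ from that of LP, so these values do not rank the fractions.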

How the results depend on the processing

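Over 2737 values of the 9 tested genes under alternatives, 185 changed sign, none with a call in either fit. Of 398 values for called results 334 kept the call and 64 lost it, and 66 others gained one. The causes were not tested. Library weights gave 4164 genes for EP against sham in LM (2336 without), 2407 for TPA against EP (541) with 5 of the 9 genes (0), 3287 for RU486 against EP (2142) with 6 (2), 3646 for TPA against sham (1925) with 4 (2), and 5095 for RU486 against sham (2587) with 3 (0). In LP weights gave 3167 for TPA against EP (2080), 1470 for TPA against sham (619) with 1 of the 9 (0) and 2650 for RU486 against sham (1255). In MSC they gave 1086 genes and 2 of the 9 for EP against sham, 152 and 2 for TPA against EP, 96 and 1 for RU486 against EP, 7 for TPA against sham and 3 for RU486 against sham, all from 0. With the 2 compared groups only, LM had 2 genes for TPA against EP, 4 of the 9 for RU486 against EP, and 1178 genes and 1 of the 9 for TPA against sham. LP had 900 for TPA against EP, 1 of the 9 for TPA against sham and 2042 genes for RU486 against sham, and MSC had 1 for TPA against EP. A pseudocount of 0.1 gave 1 of the 9 for RU486 against EP and 2 for RU486 against sham in LM, 1 gene for TPA against RU486 in LM, and 1 of the 9 for TPA against sham in LP. Values as deposited gave 4 of the 9 for RU486 against EP in LM, 5 genes for TPA against EP in MSC and 7 of the 9 for MSC against LP. No filter gave 1 of the 9 for TPA against sham in LM, and in MSC 1 gene for EP against sham, 2 for TPA against EP and 1 for RU486 against EP. Without mouse 332, LM had 2220 genes and 4 of the 9 for TPA against EP. For the comparisons without its group, an alternative chosen after seeing the data, it had 2954 genes for EP against sham, 2824 and 6 for RU486 against EP, and 3154 and 2 for RU486 against sham. Without the 4 MSC libraries low in Krt14, also chosen after seeing the data, MSC had 1 gene for TPA against sham, and the LP and MSC effects differed in 68 genes for RU486 (177 with them) with 1 of the 9, and in 80 for TPA (207).

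Leaving out 1 library at a time gave, for LM, 911 to 2839 genes and 2 to 5 of the 9 (EP against sham), 187 to 2220 and 0 to 4 (TPA against EP), 1294 to 1594 and 0 to 5 (RU486 against EP), 1092 to 2165 and 0 to 2 (TPA against sham), 1666 to 2385 and 0 (RU486 against sham), and 0 to 5 genes for TPA against RU486. For LP it gave 2846 to 4138 and 5 to 7, 1343 to 2731 and 4 to 5, 1655 to 2953 and 3 to 5, 334 to 716 and 0, and 673 to 1071 and 2 to 4, in the same order. MSC had 0 to 1 genes for EP against sham and 0 to 12 with 0 to 1 of the 9 for TPA against EP. MSC against LP had 3226 to 4496 genes and 1 to 2 of the 9. The differences between LP and MSC had 214 to 730 and 1 to 2 for EP, 59 to 622 and 0 for RU486, and 47 to 550 and 0 to 1 for TPA.

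With the replicate block for mouse, MSC against LP had 4659 genes (4712 without) and the differences between LP and MSC had 580 (454), 264 (177) and 284 (207) for EP, RU486 and TPA. The block changed no call of the 9 genes, with Uhrf1 at 2.25 for EP (adjusted p from limma 3.8e-05).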
